A study of Mus musculus with 18 samples.

Results

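The genes of the BAP1 deubiquitinase complex were followed in the nascent RNA of WT and *Tet2*-KO mouse embryonic stem (mES) cells. The members were *Bap1*, *Asxl1*, *Asxl2*, *Asxl3*, *Mbd5*, *Mbd6*, *Foxk1*, *Foxk2*, *Hcfc1* and *Ogt*, taken by symbol through the Ensembl identifiers of the deposited count tables, which is 10 of 54446 genes counted. Both lines were grown with serum, LIF, CHIR99021 and PD0325901, and were given 1 mM 5-ethynyl uridine (EU), a uridine analogue that enters RNA as it is made, for 10, 20 or 40 min. Labelled RNA was coupled to biotin, captured on streptavidin and sequenced after depletion of ribosomal RNA. There were 3 libraries in each of the 6 groups, 9 of WT and 9 of *Tet2*-KO cells. A single line stood for each genotype, so the replicates are dishes, a difference between genotypes cannot be told apart from a difference between these lines, and p-values measure the spread between dishes.

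Polycomb repressive complex 1 (PRC1) attaches a single ubiquitin to histone H2A at the site called H2AK119ub, a mark of repressed chromatin. BAP1 is the hydrolase that removes this ubiquitin. It is active only when bound to one of the ASXL proteins, and in flies the pair is known as the Polycomb repressive deubiquitinase. MBD5 and MBD6 join the complex through the ASXL proteins, FOXK1 and FOXK2 are DNA-binding forkhead proteins that bring it to chromatin, HCFC1 is a large scaffold for transcription regulators, and OGT is the transferase that places O-linked N-acetylglucosamine on nuclear proteins, HCFC1 among them.

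Upstream DNA is shown for the catalytic subunit, for the MBD pair and for *Foxk2* and *Ogt*, which lay at opposite ends of the genotype comparison among members with a listed promoter. The sequences are from RefSeq on GRCm38.p6 (mm10), end before the annotated start of transcription and are written 5′ to 3′ on the strand of the gene. Capitals mark GGGCGG, the core of an SP-type GC box, on either strand.
Bap1, chr14:31251239-31251449, plus strand: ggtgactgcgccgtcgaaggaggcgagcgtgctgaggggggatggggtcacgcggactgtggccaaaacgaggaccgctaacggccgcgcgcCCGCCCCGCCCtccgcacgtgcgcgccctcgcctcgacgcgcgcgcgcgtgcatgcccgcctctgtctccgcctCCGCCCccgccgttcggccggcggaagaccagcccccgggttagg
Mbd5, chr2:48949258-48949507, plus strand: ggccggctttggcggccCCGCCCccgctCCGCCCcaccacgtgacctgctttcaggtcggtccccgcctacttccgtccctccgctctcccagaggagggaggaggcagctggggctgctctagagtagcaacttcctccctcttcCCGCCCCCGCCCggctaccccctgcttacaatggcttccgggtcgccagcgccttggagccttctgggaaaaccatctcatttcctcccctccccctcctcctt
Mbd6, chr10:127289019-127289268, minus strand: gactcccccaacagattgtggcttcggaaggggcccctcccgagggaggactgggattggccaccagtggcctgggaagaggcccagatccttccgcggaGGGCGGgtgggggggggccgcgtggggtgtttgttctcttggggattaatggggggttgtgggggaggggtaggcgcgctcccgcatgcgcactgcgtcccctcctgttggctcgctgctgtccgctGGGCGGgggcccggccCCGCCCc
Foxk2, chr11:121259737-121259986, plus strand: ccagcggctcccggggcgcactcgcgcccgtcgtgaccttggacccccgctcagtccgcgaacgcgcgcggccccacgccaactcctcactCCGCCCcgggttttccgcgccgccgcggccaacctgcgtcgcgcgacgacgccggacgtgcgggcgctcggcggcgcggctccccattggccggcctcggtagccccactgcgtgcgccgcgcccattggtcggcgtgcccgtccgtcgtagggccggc
Ogt, chrX:101639801-101640050, plus strand: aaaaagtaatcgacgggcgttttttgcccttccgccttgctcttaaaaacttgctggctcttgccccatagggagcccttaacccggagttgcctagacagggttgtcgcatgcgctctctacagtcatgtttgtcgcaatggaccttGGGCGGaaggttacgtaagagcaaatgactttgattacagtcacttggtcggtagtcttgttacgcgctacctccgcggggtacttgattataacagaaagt

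RefSeq promoters were listed for 8 members, and *Foxk1* and *Asxl3* had no entry. *Mbd5*, *Mbd6* and *Ogt* had 2 listed promoters each, and the values given are for 1 of them. In the 250 bases before the start, all 8 held GGGCGG, which 32.7% of 32851 promoters held in a window of the same length. The *Bap1* window held 43 CpG dinucleotides and the *Foxk2* window 48, against a median of 6 over all promoters (quartiles 2 and 16). Of the *Bap1* window only 211 bases are shown above, and the count is for 250. Those of *Mbd5*, *Mbd6* and *Ogt* held 16, 17 and 15, and that of *Asxl1* held 11. CCGGAAG, an ETS-type motif, was in the windows of *Asxl1*, *Asxl2*, *Mbd5* and *Hcfc1* (6.91% of all promoters), CCAAT in those of *Mbd6* and *Foxk2* (33.8%) and AAGATGGC, a YY1-type motif, in that of *Hcfc1* alone (1.56%). The NRF1 motif was in none (0.782% of all promoters). Both strands were searched, the ETS and SP matches overlap in *Hcfc1*, and a match is a description of the sequence only.

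Between 17931614 and 23069143 reads per library fell on genes and between 44162 and 512186 on the 92 ERCC spike-in transcripts, which were added in proportion to total RNA. A level is given in reads per 1000 ERCC reads, which is a level per amount of total RNA and not per cell, and a share in reads per 1000000 gene reads (RPM), which compares a gene with the rest of its library. Fewer cells of a type and less RNA per cell cannot be told apart in such bulk samples. *Tet2* itself (chromosome 3, 133463679 to 133545139) kept its reads in the libraries labelled *Tet2*-KO, at 51.0 ± 2.76 (SD, n = 3), 121 ± 7.97 and 254 ± 18.96 per 1000 ERCC reads after 10, 20 and 40 min against 27.8 ± 2.46, 102 ± 7.63 and 182 ± 7.41 in WT. As a share of gene reads it was lower in *Tet2*-KO, at 535 ± 5.12 against 596 ± 5.71 RPM at 10 min and with an average log2 fold change of -0.20 (SE 0.01, edgeR adjusted p = 1.42e-16). Reads summed over the locus cannot reveal the loss of an exon. The summed share of 7 pluripotency genes was 2822 to 3007 RPM in WT and 2044 to 2169 in *Tet2*-KO. Of the 6 tested, *Pou5f1* rose in share and the other 5 fell, *Zfp42* (*Rex1*) by 2.25 on the log2 scale, and *Sox2* was listed at 0 reads in every library. The 7 fibroblast genes, which would mark feeder cells, summed in WT to 15.6 to 15.7 RPM at 10 min, 2.75 to 3.41 at 20 min and 3.64 to 4.55 at 40 min, and in *Tet2*-KO to 5.49 to 6.77, 11.1 to 12.6 and 5.14 to 6.47, so that the order of the genotypes at 10 min turned at 20 min. Of the 4 tested, *Col1a1* (32 to 182 reads, log2 fold change in share 0.40, edgeR adjusted p = 0.0025) and *Col3a1* (1 to 43 reads, 1.05, edgeR adjusted p = 0.00213) were higher in *Tet2*-KO. *Col1a2* (8 to 138 reads, 0.32) and *Postn* (0 to 29 reads, -0.33) were not called. *Thy1*, *Lum* and *Dcn* had at most 14, 1 and 6 reads. Primitive endoderm genes summed to 6.70 to 13.7 RPM in WT and 5.49 to 10.7 in *Tet2*-KO. Of the 4 tested, *Gata4* (45 to 147 reads) was lower in share by 0.42 (edgeR adjusted p = 0.000384) and none was called higher. Trophectoderm genes summed to 8.94 to 11.6 and 12.9 to 18.2, with *Gata3* (61 to 284 reads) higher in share by 1.49 on the log2 scale, *Eomes* (59 to 180 reads) lower by 0.66, and 0 to 5 reads on *Cdx2*. The part of these differences in the results for the complex was not tested.

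Every member was transcribed in both lines, at levels that differed widely. *Asxl1*, on chromosome 2 from 153345829 to 153404007, stood highest per kilobase of exon, with 62.3 RPM per kb as the median of 9 WT libraries (range 49.5 to 66.8). *Foxk2* (26.0), *Hcfc1* (23.4), *Ogt* (22.3) and *Asxl2* (21.2) followed in WT, and the ranges of neighbours in this order overlapped. *Mbd5* stood apart at 9.63 (8.94 to 10.49). *Mbd6* (6.81), *Bap1* (5.98) and *Foxk1* (5.18) formed a lower set whose neighbours overlapped. *Asxl3*, on chromosome 18, was lowest at 2.07 (1.66 to 2.24), below every other member in all 9 libraries. In *Tet2*-KO, *Asxl1* (66.1) and *Asxl3* (1.08) kept the ends of the order, and *Foxk2* (20.7) came after *Ogt* (26.3), *Hcfc1* (24.6) and *Asxl2* (22.3).

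Nascent RNA holds introns, and whether intron reads were counted is not given in the sources used here, so the order was also taken per kilobase of gene span. On that scale *Hcfc1* (8.29 in WT), *Asxl1* (7.98) and *Mbd6* (4.30) led, and *Mbd5* fell to 0.503, since its gene spans 375.898 kb against 7.063 kb for *Mbd6*. *Asxl3* was again lowest (0.174). The catalytic subunit *Bap1* had between 433 and 778 reads per library, *Mbd6* between 515 and 725, *Asxl3* between 264 and 775 and *Asxl1* between 7424 and 11116. The start of *Asxl1* shares 197 exon bases with *2500004C02Rik*, that of *Asxl2* shares 155 with *1110002L01Rik* and that of *Mbd5* shares 136 with *Orc4*, all on the opposite strand, and without the strand setting of the counting the reads of such partners cannot be told apart.

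Per ERCC read, 9 of the 10 members rose in *Tet2*-KO when the 3 times were averaged and none fell. The background was as broad, because 80.5% of the 19910 genes tested were called higher and 4.15% lower (quasi-likelihood test of edgeR, adjusted after Benjamini and Hochberg, threshold 0.05). The median log2 fold change was 0.79 over the members and 0.70 over all genes tested. *Asxl3* was the member without a call. For 8 members every *Tet2*-KO library lay above every WT library at each labelling time, which 51.6% of genes tested did, and *Asxl3* and *Foxk2* were the exceptions.

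**Figure D1:**
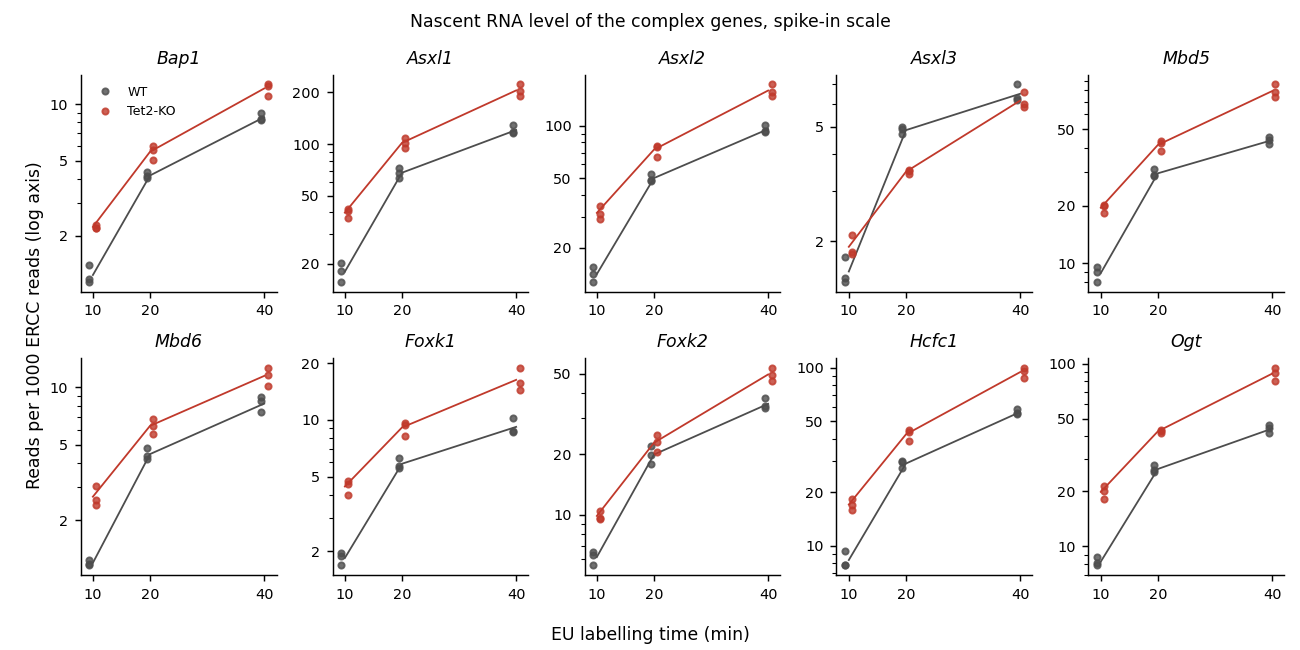
Reads per 1000 ERCC reads (log axis) for each member against EU labelling time, with 1 point per library, 3 libraries per group, and lines through the group means of WT (grey) and *Tet2*-KO (red). The red points lie above the grey ones at every time for 8 members, overlap them at 20 min for *Foxk2*, and for *Asxl3* lie above at 10 min, below at 20 min and among them at 40 min.

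*Bap1* (chromosome 14, 31251450 to 31259944) stood at 1.14, 1.40 and 1.17 reads per 1000 ERCC reads in the 3 WT libraries at 10 min and at 2.21, 2.19 and 2.29 in *Tet2*-KO. At 40 min the values were 8.21, 9.02 and 8.38 against 12.7, 11.1 and 12.5. The genotypes did not overlap at either time. The log2 fold change averaged over times was 0.59 (SE 0.06, edgeR adjusted p = 5.89e-18), at the 37.8th percentile of the genes tested.

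*Mbd6* (chromosome 10, 127281956 to 127289018) stood at 1.16, 1.24 and 1.17 in WT and 2.39, 2.56 and 3.01 in *Tet2*-KO at 10 min. After 40 min it was at 7.38, 8.85 and 8.43 against 12.7, 10.1 and 11.7. *Tet2*-KO was higher at both times, by a log2 fold change of 1.16 (SE 0.11) at 10 min and 0.48 (SE 0.11) at 40 min. Its average over the times was 0.71 (SE 0.06, edgeR adjusted p = 1.76e-24), close to the median gene. Its paralogue *Mbd5* (chromosome 2, 48949508 to 49325405), with the average at 0.83 (SE 0.05), was 1.77-fold higher, and went from 44.0 ± 1.88 (SD, n = 3) to 79.3 ± 6.16 at 40 min.

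Among the activating subunits, *Asxl1* and *Asxl2* (chromosome 12, 3426857 to 3506852) rose 1.78-fold and 1.75-fold. *Asxl1* had 120.8 ± 6.79 (SD, n = 3) reads per 1000 ERCC reads in WT and 206 ± 16.2 in *Tet2*-KO at 40 min, and *Asxl2* had 95.4 ± 4.25 and 158 ± 12.4. *Asxl3* did not follow them. Its 10 min values were 1.497, 1.77 and 1.45 in WT and 1.81, 1.83 and 2.10 in *Tet2*-KO, a log2 fold change of 0.28 (SE 0.12, edgeR adjusted p = 0.0205). That call was lost without *Tet2*-KO 10 min replicate 3 (0.21), WT 10 min replicate 1 (0.25) or WT 10 min replicate 3 (0.23). At 20 min the order turned, with 4.97, 4.91 and 4.69 in WT and 3.51, 3.41 and 3.53 in *Tet2*-KO, a log2 fold change of -0.48 (SE 0.12, edgeR adjusted p = 0.000199). The values overlapped at 40 min, at 6.29, 6.998 and 6.19 against 6.61, 5.99 and 5.84.

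The forkhead pair moved by unequal amounts. *Foxk1* (chromosome 5, 142401497 to 142462011) rose 1.88-fold and *Foxk2* (chromosome 11, 121259990 to 121309896) 1.37-fold. At 20 min *Foxk2* was at 19.7, 22.0 and 17.9 in WT and 20.4, 24.7 and 23.0 in *Tet2*-KO, where the groups overlapped and the log2 fold change of 0.19 was not called (edgeR adjusted p = 0.0571). It was called there when any of 6 libraries was left out, with values from 0.19 without WT 10 min replicate 2 or 3 or *Tet2*-KO 40 min replicate 1 or 2, to 0.26 without *Tet2*-KO 20 min replicate 1 and 0.27 without WT 20 min replicate 2. The X-linked members *Ogt* (101640060 to 101684351) and *Hcfc1* (73942792 to 73966357) rose 1.98-fold and 1.71-fold. *Ogt* had 41.8, 46.3 and 44.3 in WT and 94.9, 80.9 and 88.6 in *Tet2*-KO at 40 min, the largest average log2 fold change among the members at 0.98 (SE 0.05).

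By labelling time, 10 members were higher at 10 min (79% of genes tested), 8 at 20 min (53.7%) and 9 at 40 min (68.2%). None was lower at 10 min (2.1% of genes) or 40 min (2.84%), and *Asxl3* was lower at 20 min (4.86%). The difference itself changed between 10 and 40 min for 4 members, all downwards, against 19.3% of genes tested, and upwards for none, against 0.552%. These were *Mbd6*, by -0.67 in log2 fold change (SE 0.16, edgeR adjusted p = 0.00112), *Asxl2* by -0.43 (SE 0.12, 0.00643), *Foxk1* by -0.43 (SE 0.15, 0.0261) and *Asxl1* by -0.38 (SE 0.12, 0.0172), while the median gene changed by -0.29. Without WT 10 min replicate 2 the count was 9, and the genes called downwards went from 3835 to 5831 of 19910. Without *Tet2*-KO 40 min replicate 1 the member count was 7. Over all 18 fits that left out a library, between 1742 and 5831 genes were called downwards. The member count was 2 without *Tet2*-KO 10 min replicate 3, *Tet2*-KO 40 min replicate 2, WT 10 min replicate 3 or WT 40 min replicate 2. In those fits between 1742 and 2181 genes were called downwards, so the background moved with the member count. *Mbd6* and *Asxl2* were called in every one of the 18 fits. All members share the ERCC total of each library, so their values on this scale are not independent of each other.

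Slopes of these levels on labelling time, the relative transcription rates, were larger in *Tet2*-KO for 9 members. *Ogt* had the largest ratio of slopes, *Tet2*-KO over WT, at 1.98 (SE 0.19), from 1.15 ± 0.10 to 2.28 ± 0.10 (SE, 9 libraries each) reads per 1000 ERCC reads per min. *Mbd5* followed at 1.79, *Foxk1* at 1.68, *Asxl1* and *Hcfc1* at 1.65 and *Asxl2* at 1.60, against a median of 1.54 over protein-coding genes (quartiles 1.29 and 1.86). *Foxk2* (1.40), *Bap1* (1.38) and *Mbd6* (1.27) lay below that median. *Asxl3* had a ratio of 0.919 (SE 0.15), where 89.3% of 15158 protein-coding genes had a larger slope in *Tet2*-KO. Line fits of 9 points at 3 times carry no test here, and the ratios and their order depended on the times used. With 10 and 20 min alone *Ogt* was at 1.25, *Mbd5* at 1.07, *Foxk2* turned to 0.938 and *Asxl3* fell to 0.478. With 20 and 40 min alone *Mbd5* (2.61) and *Ogt* (2.59) led and *Asxl3* turned to 1.63.

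As a share of gene reads, the complex did not move together. On average over labelling times 5 members rose, namely *Asxl1*, *Asxl2*, *Mbd5*, *Foxk1* and *Ogt* (24.6% of genes tested were higher), and 3 fell, namely *Bap1*, *Asxl3* and *Foxk2* (32% were lower). *Mbd6* and *Hcfc1* were not called. Most of these differences were small, and 7 of the 8 called members lay between 0.823-fold and 1.19-fold.

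**Figure D2:**
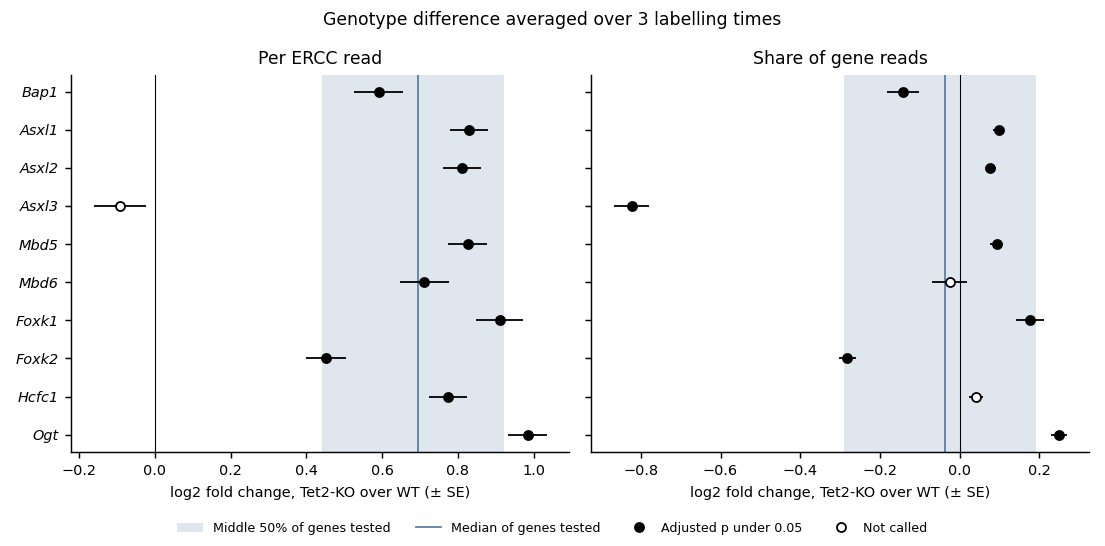
Log2 fold change of each member, *Tet2*-KO over WT averaged over 3 labelling times, with its standard error, per ERCC read (left) and as a share of gene reads (right). The blue line is the median of the 19910 genes tested (0.70 and -0.04) and the band their middle 50%, with *Asxl3* below the band in both panels and *Ogt* above it.

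*Asxl3* had the largest change of share, at 0.565-fold (log2 fold change -0.82, SE 0.04, edgeR adjusted p = 2.81e-17). Its shares in WT were 32.2, 34.8 and 33.9 RPM at 10 min, 34.4, 31.2 and 33.5 at 20 min and 25.8, 27.1 and 25.9 at 40 min. In *Tet2*-KO they were 18.9, 20.4 and 20.8, then 18.3, 15.8 and 16.7, then 15.4, 16.4 and 14.7. Every *Tet2*-KO library lay below every WT library, across all labelling times. *Foxk2* also lay below WT at each time, with means of 132 ± 3.81 (SD, n = 3), 135 ± 6.02 and 143 ± 3.51 RPM in WT and 103 ± 2.61, 110.1 ± 4.15 and 125 ± 0.356 in *Tet2*-KO. Its log2 fold change was -0.28 (SE 0.02, edgeR adjusted p = 2.72e-13).

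*Bap1* fell slightly, to 0.906-fold (log2 fold change -0.14, SE 0.04, edgeR adjusted p = 0.00239). It had shares of 24.5, 27.5 and 27.4 in WT and 23.0, 24.4 and 22.7 in *Tet2*-KO at 10 min. At 20 min they were 28.0, 27.7 and 29.6 against 26.3, 27.9 and 27.0, and at 40 min 33.7, 34.9 and 35.0 against 29.7, 30.3 and 31.6. The genotypes overlapped at 20 min only. *Bap1* was called lower at 10 min and at 40 min, but the 10 min call (-0.18) was lost without *Tet2*-KO 10 min replicate 1 (-0.17) or 3 (-0.16) or WT 10 min replicate 2 or 3 (both -0.15), and with TMM normalization or DESeq2's size factors (both -0.11). The 40 min call (-0.18) was lost without *Tet2*-KO 40 min replicate 1 (-0.16) or 2 (-0.17) or WT 40 min replicate 2 or 3 (both -0.17).

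*Mbd6* had no difference in average share that these libraries could show (log2 fold change -0.03, SE 0.04, edgeR adjusted p = 0.648). Its shares at 10 min were 24.9, 24.4 and 27.4 in WT and 24.9, 28.6 and 29.9 in *Tet2*-KO, and at 20 min 29.2, 30.5 and 31.1 against 29.8, 29.2 and 32.2. The groups overlapped at both times and separated at 40 min, where WT stood at 30.3, 34.2 and 35.2 and *Tet2*-KO at 29.5, 27.7 and 29.4. At 40 min *Mbd6* was called lower (log2 fold change -0.20, SE 0.08, edgeR adjusted p = 0.0321). This call was lost without WT 40 min replicate 2 (-0.18) or 3 (-0.16) or without any *Tet2*-KO 40 min replicate (-0.22, -0.17 and -0.22 for 1, 2 and 3). The change of its difference from 10 to 40 min was -0.32 (SE 0.11), and no member passed the threshold for such a change in share (*Mbd6* edgeR adjusted p = 0.0563), where 5.89% of genes tested rose and 3.36% fell. *Mbd6* was past it without *Tet2*-KO 10 min replicate 1 (-0.40), WT 10 min replicate 3 (-0.37) or WT 40 min replicate 1 (-0.38), and with TMM normalization (-0.38) or DESeq2's size factors (-0.39).

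**Figure D3:**
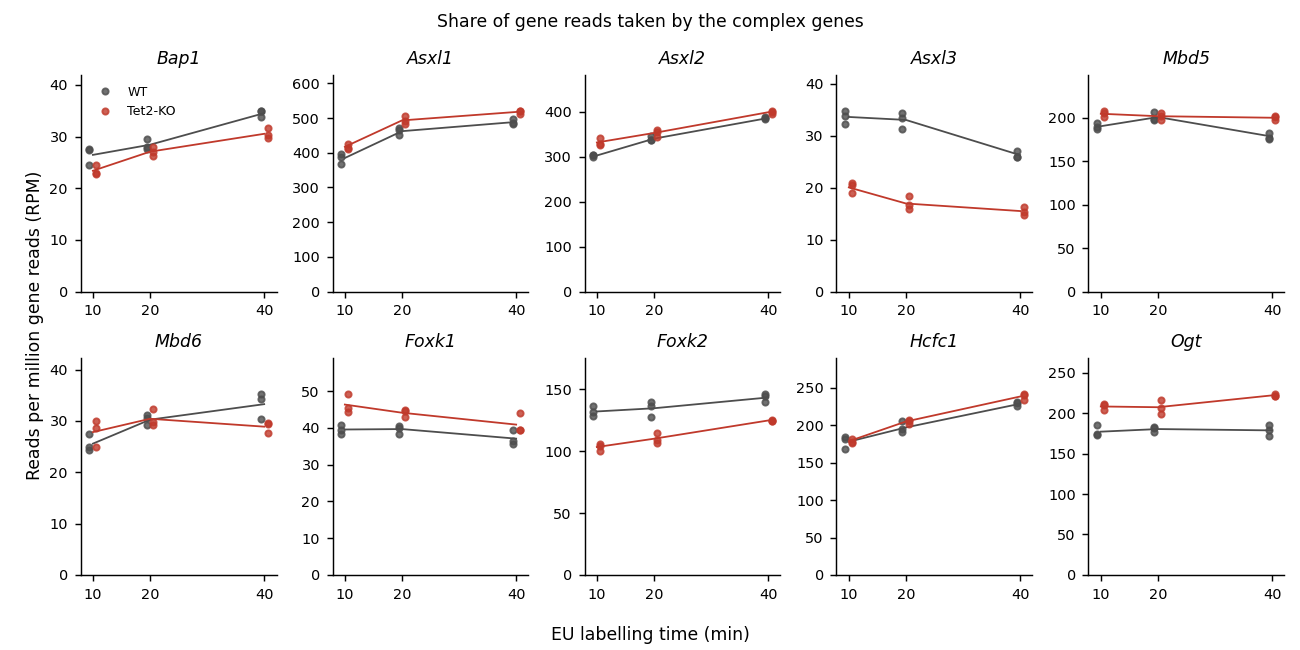
Reads per 1000000 gene reads (RPM) for each member against EU labelling time, with 1 point per library and lines through the group means of WT (grey) and *Tet2*-KO (red), 3 libraries per group. *Asxl3* and *Foxk2* lie below WT at all 3 times, *Asxl1*, *Foxk1* and *Ogt* above, and *Mbd6* crosses from overlap at 10 and 20 min to below WT at 40 min.

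*Ogt* had the largest rise in share, 1.19-fold (log2 fold change 0.25, SE 0.02, edgeR adjusted p = 3.43e-13). At 40 min its shares were 172, 179 and 185 in WT and 221, 221 and 223 in *Tet2*-KO, and the genotypes did not overlap at any time. *Hcfc1*, the substrate and partner on the same chromosome, differed little, with 229 ± 2.57 (SD, n = 3) in WT and 239 ± 4.59 in *Tet2*-KO at 40 min. Its average of 0.04 was not called (edgeR adjusted p = 0.061), and was called without *Tet2*-KO 40 min replicate 1 (0.05), WT 10 min replicate 2 or 3 (both 0.05) or WT 20 min replicate 1 (0.05), and with TMM normalization or DESeq2's size factors (both 0.08). Over 516 X-linked protein-coding genes tested, the median log2 fold change in share was 0.02 (quartiles -0.18 and 0.25), and over 14621 autosomal ones -0.04 (quartiles -0.27 and 0.15). The 2 lines also differed on the Y chromosome, with 648 to 827 reads on *Uty* in WT libraries and 9 to 24 in *Tet2*-KO, and 217 to 288 against 0 to 11 on *Ddx3y*. *Xist* had 34 to 72 reads in WT and 14 to 43 in *Tet2*-KO. The part of sex chromosome content in the values of *Ogt* and *Hcfc1* was not tested.

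*Asxl1* (1.07-fold), *Asxl2* (1.05-fold), *Mbd5* (1.07-fold) and *Foxk1* (1.13-fold) made up the rest of the members that rose in share. *Asxl1* went from 385 ± 15.2 (SD, n = 3) to 417 ± 6.78 at 10 min and from 489 ± 7.93 to 517 ± 4.74 RPM at 40 min, with no overlap at any time. *Foxk1* did not overlap either, though at 40 min its lowest *Tet2*-KO library and its highest WT library were both at 39.3. Without overlap at all 3 times were therefore 3 members above WT (11.8% of genes tested) and 2 below (13.9%). At single times 5 members were higher and 3 lower at 10 min (17.9% and 27.1% of genes), 3 and 2 at 20 min (17.6% and 20.7%) and 3 and 4 at 40 min (18.9% and 19.6%). *Foxk1* at 20 min (0.15) lost its call in 8 of the fits that left out a library, with values from 0.13 without WT 20 min replicate 1 to 0.17 without WT 20 min replicate 3. The other 6 were *Tet2*-KO 20 min replicates 2 and 3, *Tet2*-KO 40 min replicates 2 and 3, WT 20 min replicate 2 and WT 40 min replicate 3. *Asxl1* at 40 min lost its call without WT 40 min replicate 1 (0.07).

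The balance of paralogues was taken as a ratio of reads within a library, which needs no scale, and the genotypes were compared by a two-sided exact permutation test, with labels exchanged inside each time (8000 ways) and p adjusted over 3 ratios. The ratio of *Foxk1* to *Foxk2* was 1.37-fold higher in *Tet2*-KO (p = 0.00025, the smallest these permutations can give, adjusted p = 0.00075). It was 0.299 ± 0.00132 (SD, n = 3), 0.295 ± 0.0188 and 0.258 ± 0.00923 in WT and 0.449 ± 0.0358, 0.401 ± 0.00981 and 0.328 ± 0.0220 in *Tet2*-KO at 10, 20 and 40 min. The lowest *Tet2*-KO library at 40 min (0.314) was below the highest WT library at 20 min (0.316), but within each time the genotypes did not overlap.

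The ratio of *Mbd6* to *Mbd5* did not pass the test (0.922-fold, exact permutation p = 0.0985, adjusted p = 0.148). At 10 and 20 min it was 0.135 ± 0.0103 (SD, n = 3) and 0.151 ± 0.00410 in WT and 0.136 ± 0.0150 and 0.151 ± 0.00552 in *Tet2*-KO. At 40 min WT reached 0.187 ± 0.0177 and *Tet2*-KO 0.145 ± 0.00648, where no library overlapped (0.775-fold, exact permutation p = 0.1, the smallest that 3 against 3 allows). Without *Tet2*-KO 10 min replicate 3 the average log2 ratio was -0.14, from -0.12, and passed the test before adjustment (exact permutation p = 0.044). *Asxl1* to *Asxl2* stood between 1.21 and 1.43 in every library, and differed by 1.01-fold (exact permutation p = 0.297). At 40 min it did not overlap between the genotypes either, with 1.25 to 1.28 in WT and 1.29 to 1.30 in *Tet2*-KO (1.02-fold, exact permutation p = 0.1, again the smallest possible).

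**Figure D4:**
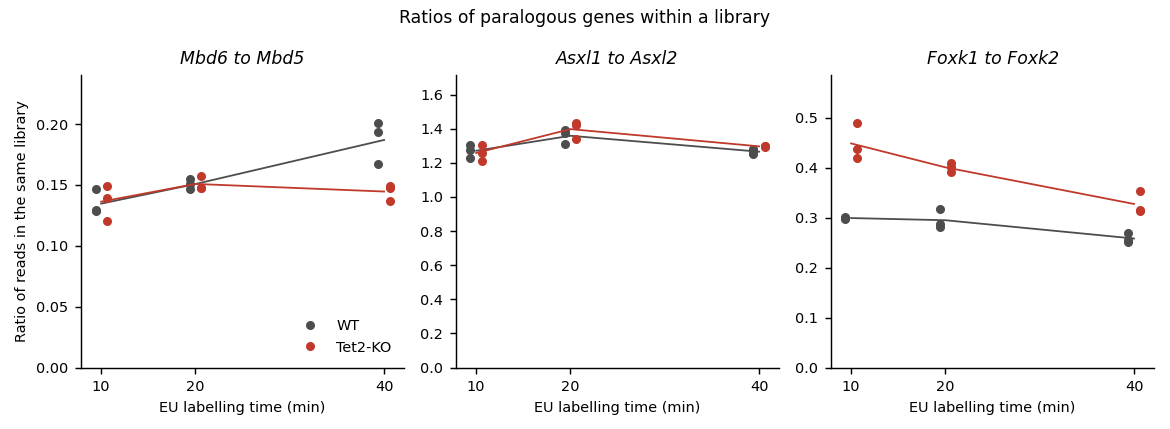
Ratio of reads of 2 paralogues in the same library against EU labelling time, with 1 point per library and lines through the means of 3 WT (grey) and 3 *Tet2*-KO (red) libraries, the vertical axes starting at 0. *Foxk1* to *Foxk2* is higher in *Tet2*-KO at each time, *Mbd6* to *Mbd5* parts at 40 min, and *Asxl1* to *Asxl2* overlaps at 10 and 20 min and parts by 1.02-fold at 40 min.

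The make-up of the complex's nascent RNA differed between labelling times in each genotype. Each time was a separate set of dishes, so labelling time cannot be told apart from other differences between dishes, such as the fibroblast sums above. From 10 to 40 min in WT the share rose for 6 members (16.1% of genes tested) and fell for 2 (29.5%). In *Tet2*-KO it also rose for 6 (16.5%) and fell for 2 (20%). *Bap1* rose by log2 fold changes of 0.38 (SE 0.07) in WT and 0.39 (SE 0.07) in *Tet2*-KO, *Asxl1* by 0.34 and 0.31, *Asxl2* by 0.35 and 0.27, *Hcfc1* by 0.36 and 0.42 and *Foxk2* by 0.12 and 0.27. *Asxl3* fell by 0.36 in WT and 0.37 in *Tet2*-KO.

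The remaining members were called in 1 genotype each. *Mbd6* rose by 0.38 in WT (SE 0.08, edgeR adjusted p = 0.000102), and its value in *Tet2*-KO was 0.06 (SE 0.08, edgeR adjusted p = 0.609). *Mbd5* fell by 0.09 in WT, but stood at 0.0078 with TMM normalization and 0.0045 with DESeq2's size factors, uncalled in both (adjusted p = 0.849 with edgeR and 0.923 with DESeq2). *Ogt* rose by 0.09 and *Foxk1* fell by 0.18 in *Tet2*-KO. The *Ogt* call was lost without *Tet2*-KO 10 min replicate 2 (0.08) or *Tet2*-KO 40 min replicate 1 (0.09), 2 (0.09) or 3 (0.09), and the *Foxk1* call without *Tet2*-KO 10 min replicate 1 (-0.14) or *Tet2*-KO 40 min replicate 2 (-0.15) or 3 (-0.16), and with TMM normalization (-0.14) or DESeq2's size factors (-0.15). The test of the difference between genotypes is the change from 10 to 40 min given above, which no member passed on the scale of shares.

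**Figure D5:**
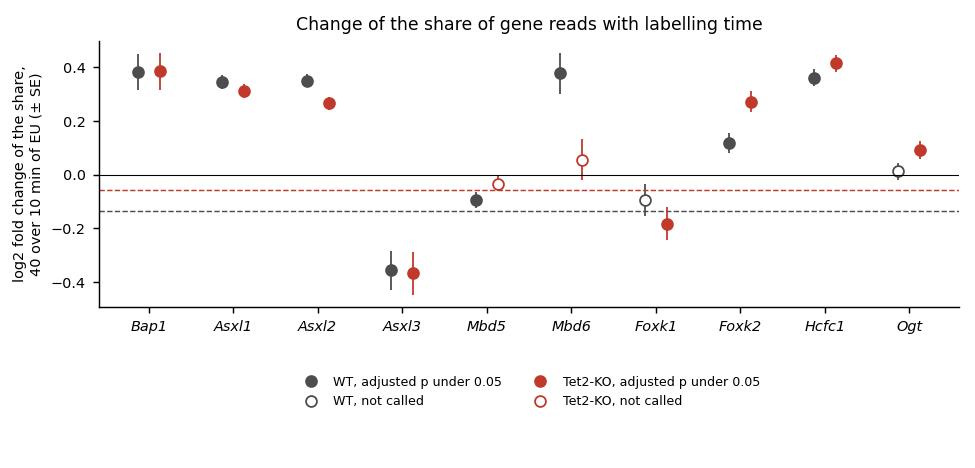
Log2 fold change of the share of gene reads from 10 to 40 min of EU for each member, with its standard error, in WT (grey) and *Tet2*-KO (red), filled where the adjusted p was under 0.05. Dashed lines are the medians of all genes tested in each genotype. *Bap1*, *Asxl1*, *Asxl2*, *Foxk2* and *Hcfc1* are filled and above 0 in both, while *Asxl3* is filled and below. *Mbd6* and *Ogt* also lie above 0 in both but are filled in 1 genotype each.

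Other genes related to the complex were counted from lists. Over all genes tested, 24.6% rose and 32% fell in average share and 80.5% rose per ERCC read, and the counts below are to be read against these. Of 7 genes listed as other H2A deubiquitinases, none rose and 4 fell in share, and 6 rose and none fell per ERCC read. That list was not limited to enzymes acting on H2AK119ub. *Usp3* had the highest log2 fold change in share at 0.04 (SE 0.02, edgeR adjusted p = 0.151) and *Usp51*, with 1 to 31 reads, the lowest at -0.99 (SE 0.32). Their median was -0.15, against -0.04 over all genes tested. Of 11 genes of the PRC1 ligase that writes H2AK119ub, 4 rose and 3 fell in share and 10 rose per ERCC read, shares near those of all genes. *Kdm2b*, which recruits a PRC1 variant to CpG islands, rose by 0.33 (SE 0.02) and *Pcgf1*, a subunit of that variant, fell by 0.66 (SE 0.08).

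Among the 3 other hydrolases of the UCH family, to which BAP1 belongs, *Uchl1* rose by 0.22 in share and *Uchl5* fell by 0.14, and all 3 rose per ERCC read, as 80.5% of genes did. The 3 other partner genes were *Kdm1b*, which fell by 0.23, *Mgea5*, the O-GlcNAcase that removes the sugar OGT adds, which fell by 0.05, and the *Hcfc1* paralogue *Hcfc2* at -0.05 (SE 0.06, edgeR adjusted p = 0.478). All 3 of them rose per ERCC read, against the same 80.5%. Shares of *Bap1* over the 18 libraries followed most closely those of *Aspm* (Pearson's r = 0.961), *Slf2* (0.959) and *Pnisr* (0.957) among 14860 protein-coding genes compared on the log2 scale. For *Mbd6* they were *Atg2a* (0.841), *Sod2* (0.838) and *Vac14* (0.825). These correlations are a description, since the points share libraries, genotypes, labelling times and depth.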

How the data were processed

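Nascent RNA was counted in 18 libraries, 3 for each of 2 genotypes at 3 labelling times. The authors trimmed reads with Trimmomatic 0.39, aligned them with HISAT2 2.2.1 to mm10 with GENCODE M19 and ERCC sequences, counted them with HTSeq 0.12.4 and deposited raw counts per gene. Feature type, strand and overlap mode of HTSeq are not given in the sources used here. Rows naming no gene held 20.9% to 24.9% of reads and were left out. The members and lists were chosen with earlier results of these data known.

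Symbols came from GENCODE M21, which held 54409 of 54446 identifiers. filterByExpr (minimum count 10) kept 19910 genes, with all 10 members. One edgeR 4.0.16 fit of 6 groups (R 4.3.3) used ERCC totals or gene totals as library sizes, with quasi-likelihood tests, and SE is the log2 fold change over the root of F. All 18 replicate pairs differed by more than counting noise (chi-square per gene 1.64 to 5.34). The reads carried no molecular identifiers and so are not independent counts of molecules. Named beside the members were *Tet2* and, of each related list, the genes with the highest and lowest log2 fold change in share. *Mgea5*, individual cell type markers and the sex chromosome genes were named after their values were seen. Alternatives were TMM, DESeq2 1.42.0, ERCC transcripts with at least 100 reads, no filter, a replicate block and each library left out. On simulated counts, for the average difference in share only, edgeR and DESeq2 each recovered all 200 genes set to change. They called 11 and 15 unchanged genes. The other comparisons were not simulated, and the permutation and slope routines were checked on made-up values. *Foxk1* and *Asxl3* have no promoter shown.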

Additional observations from a re-analysis of the deposited data

Results flagged for a closer look

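The *Tet2*-KO against WT difference per ERCC read was not the same at 10 and 40 min for 4 members, by edgeR's test of the change itself. The log2 fold change fell by 0.67 for *Mbd6* (change -0.67), by 0.43 for both *Asxl2* and *Foxk1* (changes -0.43) and by 0.38 for *Asxl1* (change -0.38). The median gene changed by -0.29 on the same scale, and 19.3% of genes tested were called downwards. Leaving out a library gave 2 to 9 members. As a share of gene reads no member passed the threshold for such a change.

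*Asxl3* went in opposite directions per ERCC read at adjacent times, with every *Tet2*-KO library above every WT library at 10 min (ratio of means 1.22) and every one below at 20 min (ratio 0.717). The difference between these times was not tested. The median log2 fold change per ERCC read over all genes tested was 0.96 at 10 min and 0.45 at 20 min. As a share of gene reads *Asxl3* was lower in *Tet2*-KO at 10, 20 and 40 min (log2 fold changes -0.75, -0.96 and -0.76). Its call at 10 min per ERCC read was lost in 3 of the 18 fits that left out a library.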

How the results depend on the processing

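With TMM in place of ERCC totals, *Bap1* and *Foxk2* changed direction on average and the other 8 members did not. On average 6 members were called higher and 3 lower, against 5690 and 5546 of the 19910 genes tested. The members higher and lower were 6 and 2 after 10 min of EU, against 4477 and 4262 genes. They were 5 and 2 after 20 min (4048 and 3628 genes), then 4 and 4 after 40 min (3930 and 3695). The difference fell from 10 to 40 min for 2 members, against 1219 genes. Average log2 fold changes went below 0 for *Bap1* (-0.10), *Foxk2* (-0.24), *Tet2* (-0.16), *Pcgf1* (-0.62), *Uchl5* (-0.10), *Kdm1b* (-0.19) and *Hcfc2* (-0.011). So did *Bap1* (-0.11, -0.034 and -0.16) and *Foxk2* (-0.28, -0.25 and -0.19) at 10, 20 and 40 min, *Asxl3* at 10 min (-0.68) and *Mbd6* at 40 min (-0.19). TMM centres values near 0 by construction.

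For shares, *Mbd6* turned to 0.0095 with DESeq2's size factors and 0.014 with TMM, uncalled in both. These settings gave 5 members higher at 20 min (4048 genes with TMM). They gave 2 with a falling difference from 10 to 40 min, against 1344 genes with DESeq2 and 1219 with TMM. They gave 1 lower from 10 to 40 min in each genotype, with *Mbd5* in WT at 0.0045 and 0.0078. With gene totals as library sizes, 5875 genes were lower in WT and 3976 in *Tet2*-KO. The cause was not tested. With no filter on low counts, *Bap1* at 10 and 40 min (both -0.18) and *Foxk1* at 20 min (0.15) were no longer called.

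Replicate numbers showed no general pairing of the libraries, with a median correlation of 0.00057 (-0.218 to 0.190) over 45 same-numbered pairs. A pairing limited to some groups could be missed by this median. The replicate block gave 1 member with a falling difference in share, *Mbd6* (-0.32), and *Foxk1* at 20 min lost its call (0.15). Without the block 668 genes had a falling difference in share.

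At single times the ratio of *Mbd6* to *Mbd5* was 0.014 at 10 min and 0.00037 at 20 min on the log2 scale, *Asxl1* to *Asxl2* was -0.015 at 10 min, and *Foxk1* to *Foxk2* was 0.58, 0.44 and 0.34 (exact permutation p = 0.1, the smallest possible). Slope ratios moved with the pair of times, and turned for *Foxk2* (0.938 with 10 and 20 min) and *Asxl3* (1.63 with 20 and 40 min). That of *Mbd6* moved to 1.42 with slopes through the origin. The highest WT level over the lowest was 47.8-fold per kb of span.

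Leaving out a library gave 2 to 9 members with a falling difference per ERCC read, against 1742 to 5831 of all genes tested. In share it gave 0 to 1 falling (502 to 703 genes) and 0 to 1 rising (849 to 1256). It gave 2 to 4 members lower in share at 40 min, against 3338 to 4073 genes. From 10 to 40 min in *Tet2*-KO it gave 1 to 2 lower, against 3278 to 4152 genes. *Mbd6* in share ran from -0.036 to 0.037 at 20 min and from -0.019 to 0.11 from 10 to 40 min in *Tet2*-KO, and its log2 ratio to *Mbd5* from -0.14 to -0.088. Depth limits *Asxl3*, *Bap1* and *Mbd6* most, with 264 to 778 reads per library.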
